A study of Mus musculus with 40 samples.

Results

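Whether the drug acts differently in fat of mice on a high-fat diet than in fat of mice on a normal diet was examined in the 20 samples labelled subcutaneous fat, out of 40 in the series. All came from C57BL/6J mice, a common inbred laboratory strain, and were measured by RNA sequencing of whole tissue. They formed 4 groups of 5 samples, with mice on either a normal or a high-fat diet (HFD) and each diet given with or without the drug. The series text names the drug as beta-carotene; dose, duration, age and sex are not given in the labels used here, and no genotype other than the strain is stated. The quantity described is the interaction, the drug effect under HFD minus the drug effect on the normal diet, on the log2(TPM + 1) scale. TPM is a share of the library per base of gene length, so it can be compared between genes but is not an amount of RNA per cell. Libraries are named by group and by the number in their title.

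Beta-carotene is an orange plant pigment that mammals cleave to retinal, a form of vitamin A, which can be oxidised to retinoic acid, the ligand of nuclear receptors. White fat stores triglyceride in fat cells and also holds macrophages, fibroblasts, blood vessels and other cells. In obese fat, macrophages that take up lipid accumulate, lysosomes become abundant and collagen is laid down around fat cells. A drug effect that differs between the diets can therefore concern fat cells, the cells around them, or both.

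The depot label went against the markers. Upk3b, a gene of the mesothelium that covers visceral organs and epididymal fat, had a median of 68.6 TPM (6.94 to 219) in the samples labelled subcutaneous and of 0.0686 TPM in those labelled visceral. Hoxc10, a homeobox gene that marks inguinal subcutaneous fat, had a median of 1.67 TPM in the samples labelled subcutaneous and of 32.0 TPM in the others. The titles of the samples labelled subcutaneous end in e or ewat and those of the samples labelled visceral in i, suffixes that the labels do not explain. The tissue is therefore called "labelled subcutaneous" throughout. The samples also held transcripts of epididymis and testis, summed over a list of 33 genes, and the highest sums were in drug libraries. The sum ranged from 12.3 to 4695 TPM on the normal diet, 48.0 to 99993 TPM on the normal diet with drug, 19.2 to 2697 TPM under HFD and 15.9 to 19962 TPM under HFD with drug, with medians of 369, 1216, 149 and 168 TPM in that order. Normal diet with drug library 9 devoted 10.02% of its TPM to this list and HFD with drug library 27 devoted 2%. HFD libraries 22 and 50 stood apart from the other HFD libraries in macrophage genes, and calls under HFD are given with and without them. No library pair held identical values.

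Of 7776 genes with at least 10 TPM in at least 5 of the 20 samples, 1 passed the interaction test at an adjusted p of 0.05 in limma (0.0129%), and it was Inhbb. At an unadjusted p under 0.05 there were 1376 genes (17.7%), 1105 with a lower (14.2%) and 271 with a higher value (3.49%) under HFD. The median interaction over all tested genes was -0.16, and 66.1% of genes were below 0. In the same fit the drug lowered 2502 genes under HFD and raised 611 at an unadjusted p under 0.05. Without HFD libraries 22 and 50 such a count is not given, so list counts at that threshold have no share beside them. At an adjusted p under 0.05 the drug lowered 1787 genes (23%) under HFD and raised 342 (4.40%). Without HFD libraries 22 and 50 it lowered 141 and raised 7; without library 22 alone the counts were 1064 and 146, without library 50 alone 1038 and 180, and without HFD with drug library 25 they were 1107 and 148. The split also depended on how the libraries were scaled: it was 890 lower and 545 higher after quantile normalization, 873 and 694 with library medians made equal, and 708 and 652 with a trend on gene length removed. On the normal diet no gene passed in limma; the smallest adjusted p was 0.749, and 504 genes had an unadjusted p under 0.05 (6.48%). A gene past the threshold under one diet and not under the other is not shown to differ between them; only the interaction tests that.

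The genes that passed under HFD were chosen for a large drug effect there, so a smaller one on the normal diet follows from the choice; none of them passed on the normal diet. Of the 1787 that fell under HFD, 1446 (80.9%) were below 0 on the normal diet, beside 58.4% of all genes tested. Of the 342 that rose, 267 (78.1%) were above 0 there. Across all tested genes the drug effects of both diets, which share no samples, had a Pearson r of 0.468 and a Spearman rho of 0.365, given as a description since genes are not independent.

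**Figure D1:**
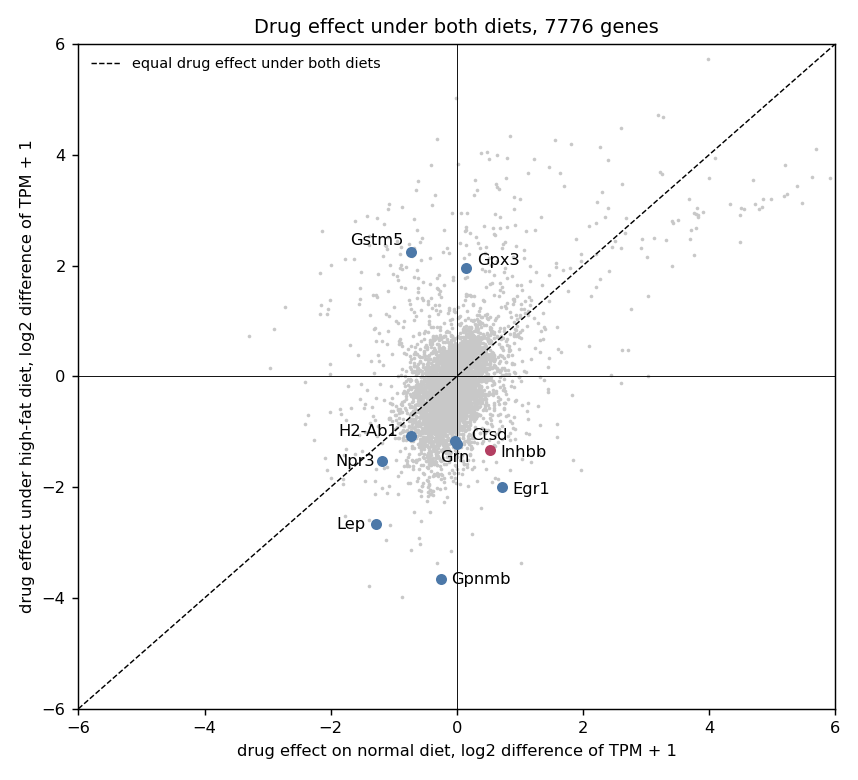
Drug effect on the normal diet (horizontal) against the drug effect under HFD (vertical), both as log2 differences of TPM + 1, for 7776 genes; the dashed line marks equal effects and 6 genes lie outside the axes. Inhbb (red) sits at 0.52 and -1.33; Lep, Npr3 and H2-Ab1 are lower under both diets, Grn and Ctsd are near 0 on the normal diet, and Egr1 has opposite signs.

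Inhbb encodes the beta B subunit shared by activin B and inhibin B, secreted ligands and antagonists of the TGF-beta family; fat cells are a known source of it. Under HFD it was at 134, 97.3, 116, 87.5 and 93.0 TPM in libraries 22, 23, 50, 82 and 83, and with drug at 27.8, 31.3, 46.8, 51.9 and 53.3 TPM in libraries 25, 27, 26, 52 and 62. All 5 HFD libraries lay above all 5 HFD libraries with drug. Such a lack of overlap, in either direction, was seen for 1363 of the 7776 genes under HFD (17.5%). Between the normal diet groups it was seen for 90 genes (1.16%). On the normal diet Inhbb was at 70.2, 44.9, 54.4, 41.3 and 52.02 TPM in libraries 91, 92, 96, 98 and 99, and with drug at 67.9, 58.0, 68.9, 95.7 and 89.2 TPM in libraries 5, 11, 2, 8 and 9. These groups overlapped, and the drug group was the higher. The means ± SD of 5 libraries were 105 ± 19.0 TPM under HFD, 42.2 ± 11.9 with drug, 52.6 ± 11.2 on the normal diet and 75.9 ± 15.9 with drug.

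The drug effect on Inhbb was -1.33 (SE 0.197) under HFD, with an adjusted p of 0.00192, and 0.52 (SE 0.197) on the normal diet, with an adjusted p of 0.749 and an unadjusted p of 0.0161. The interaction was -1.85 (SE 0.278), with an adjusted p of 0.0212. The estimate stayed between -1.99 and -1.64 in all 39 settings tried, but the call held in 26 of them. It was lost on leaving out HFD library 22 (adjusted p 0.0603), HFD library 50 (0.0691), HFD with drug library 27 (0.0564), normal diet with drug library 8 (0.0595) or normal diet library 92 (0.0698), 96 (0.0510) or 99 (0.0587). In the 20 samples labelled visceral, Inhbb was at 96.04 ± 38.5 TPM under HFD, 31.7 ± 6.15 with drug, 19.7 ± 7.38 on the normal diet and 20.2 ± 6.03 with drug. Its interaction there was -1.55 (SE 0.354; unadjusted p 0.000108, adjusted p 0.243) in a fit of all 40 samples. That fit treats the samples as independent although most library numbers recur under both labels.

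The promoter of Inhbb is shown because Inhbb was the gene that passed the test. It covers 250 bases before to 50 after the RefSeq start on build GRCm38.p6, chr1:119422199-119422498 on the minus strand, while the deposited values were made on build GRCm39. Neither the retinoid receptor half-site AGGTCA, the cyclic AMP response element TGACGTCA, the E-box CACGTGA nor the CArG box was found on either strand, so no base is in capitals. The half-site occurs in 14.5% of 5484 promoters of tested genes.
Inhbb: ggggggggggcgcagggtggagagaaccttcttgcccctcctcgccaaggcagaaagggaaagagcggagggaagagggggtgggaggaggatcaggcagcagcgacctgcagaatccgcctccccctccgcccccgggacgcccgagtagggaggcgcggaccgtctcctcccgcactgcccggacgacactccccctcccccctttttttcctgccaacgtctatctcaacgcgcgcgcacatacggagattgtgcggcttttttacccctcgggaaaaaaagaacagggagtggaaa

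**Figure D2:**
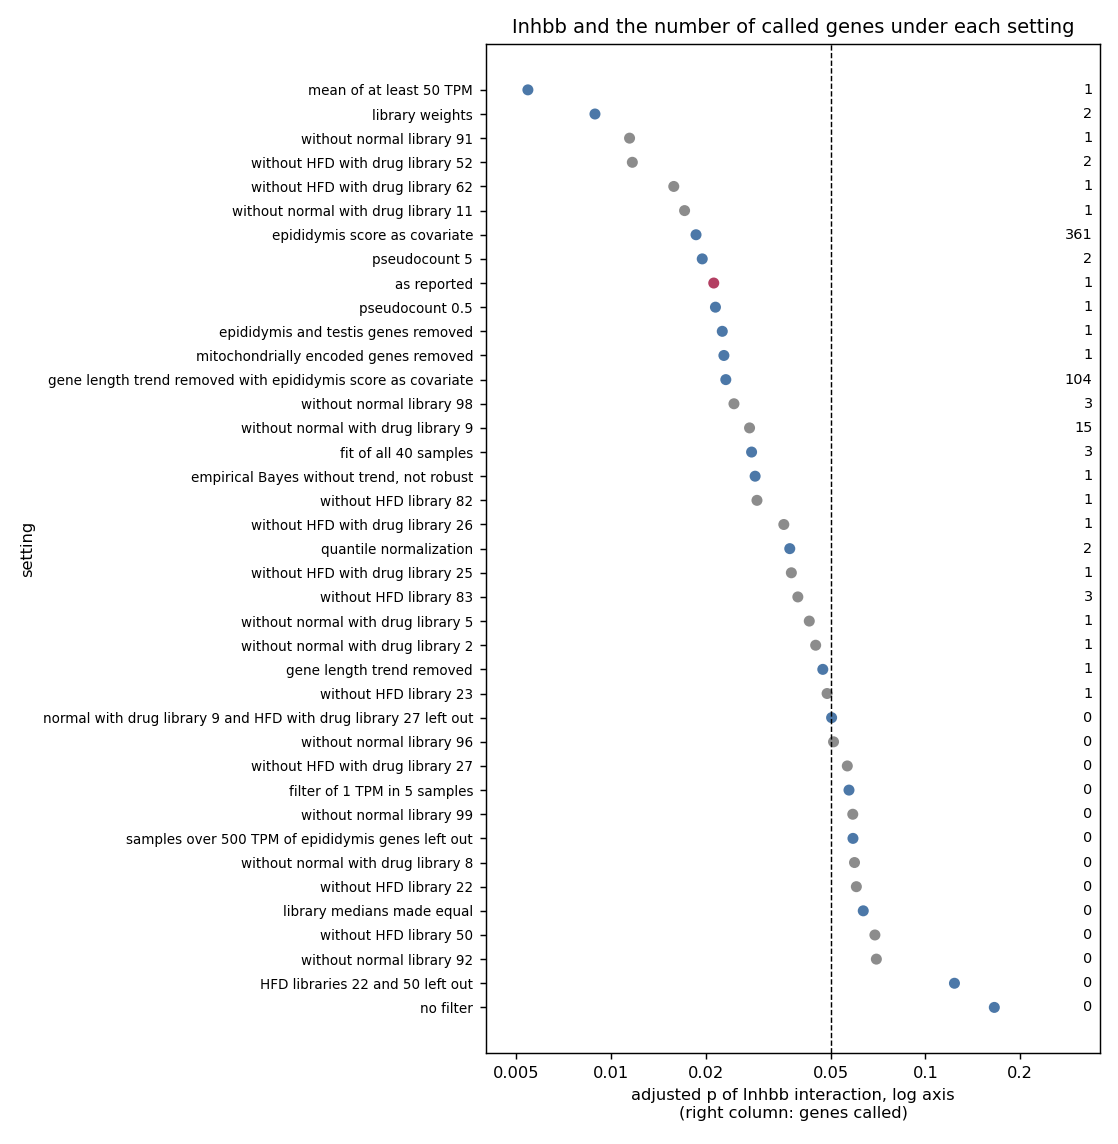
Adjusted p of the Inhbb interaction (horizontal, log axis) under 39 settings (vertical), with the number of genes called at the right; red is the fit as reported, grey the fits without 1 library, blue the other alternatives, and the dashed line is 0.05. The p lies between 0.00545 and 0.166 and the number called is between 0 and 361.

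No other gene had an adjusted p under 0.05. The second smallest was 0.0929, and genes with that value included F2r, a thrombin receptor, and Map1a, a microtubule-associated protein. The interactions of F2r and Map1a were -1.29 and -1.92. Both are named after their values were seen, since their levels are below that of the rule for named genes. Among the other genes with the smallest p of those lower under HFD and reaching a group mean of 50 TPM were Trp53i11, Sel1l, Plk2, Plbd2, Trim25, Grn, Egr1 and Lpgat1, with adjusted p from 0.127 to 0.214. Trp53i11, a p53-inducible gene, was at 56.5 to 92.9 TPM under HFD, 21.0 to 28.2 with drug, 19.9 to 41.4 on the normal diet and 19.2 to 36.0 with drug. The HFD libraries stood above all others, and the other 3 groups overlapped. Sel1l, part of the machinery that removes misfolded proteins from the endoplasmic reticulum, had means of 51.3 TPM under HFD, 30.6 with drug, 37.3 on the normal diet and 38.4 with drug. Plk2, a stress-induced kinase, fell from 109 to 30.8 TPM under HFD and was at 53.5 and 51.3 TPM on the normal diet. Lpgat1, a lysophospholipid acyltransferase, fell from 100.2 to 32.6 TPM under HFD and was at 30.4 and 23.8 TPM on the normal diet. For Plbd2, a lysosomal phospholipase-like protein, and Trim25, a ubiquitin ligase of antiviral signalling, the drug effects were -0.67 and -1.17 under HFD and -0.03 and -0.03 on the normal diet. Trp53i11, Sel1l, Plk2, Plbd2, Trim25, Grn and Lpgat1 were also called under HFD without libraries 22 and 50, with adjusted p from 0.0226 to 0.0487. They were chosen by the interaction p, and the drug effect under HFD is a part of the interaction. A fall there therefore follows in part from the choice.

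Of 24 tested lysosomal genes, 15 fell with the drug under HFD (23% of all genes), none rose and 9 did not pass. The median drug effect was -0.64 under HFD. On the normal diet it was 0.10, with members from -0.61 to 0.91. The median interaction was -0.79, beside -0.16 over all genes tested. An unadjusted interaction p under 0.05 was reached on the lower side by 15 of 24 (14.2% of all genes), and none was called. Grn, which encodes progranulin, a lysosomal and secreted protein, was at 490.4, 568, 665, 1125 and 1212 TPM in HFD libraries 23, 83, 82, 22 and 50, and with drug at 245, 356, 365, 375 and 378 TPM in libraries 25, 27, 52, 26 and 62. On the normal diet it was at 345, 397, 402, 417 and 457 TPM in libraries 96, 99, 98, 92 and 91, and with drug at 343, 368, 389, 404 and 477 TPM in libraries 9, 8, 11, 5 and 2. HFD alone stood apart, and the other 3 groups overlapped. The drug effect on Grn was -1.16 (SE 0.211; adjusted p 0.00276) under HFD and -0.03 (SE 0.211) on the normal diet, and the interaction was -1.13 (SE 0.298; adjusted p 0.214).

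Psap also had its highest mean under HFD. Psap, the precursor of the saposins that activate lipid hydrolases, was at 876, 909, 927, 2279 and 2704 TPM under HFD and at 417 to 570.4 TPM with drug, against 549.6 to 700.5 and 472 to 736 TPM on the normal diet. Its drug effect was -1.42 under HFD and -0.13 on the normal diet. Gaa, the acid glucosidase that breaks down glycogen, had drug effects of -0.48 (adjusted p 0.0242, and 0.183 without libraries 22 and 50) and 0.24. Neu1, a sialidase, and Ctsh, a cathepsin, were not called, with drug effects of 0.36 and 0.02 under HFD. The result rested in part on libraries 22 and 50: without them 2 of 24 fell under HFD (1.86% of all genes), the median interaction was -0.37, and 8 of 24 had an unadjusted interaction p under 0.05 on the lower side (5.14% of all genes).

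Promoters of 3 lysosomal genes are printed because a shared E-box is a known feature of lysosomal promoters, bound in other work by transcription factors of the TFEB family. CACGTGA was sought on both strands of 300-base RefSeq promoters; TCACGTGA holds 2 overlapping matches and is 1 site. It was found in 6 of the 18 tested lysosomal genes with a promoter (33.3%), against 407 of 5484 tested genes (7.42%) and 1160 of 27025 genes (4.29%). The 6 were Lamp1, Ctsa, Gla, Gaa, Atp6v1a and Mcoln1. Of these Ctsa, Gla, Gaa and Atp6v1a fell under HFD, though none of these 4 was called without libraries 22 and 50 (adjusted p 0.0517, 0.253, 0.183 and 0.148); Lamp1 and Mcoln1 did not pass, with -0.29 and -0.24. Grn, Psap and Tpp1 held no match. A match is a description of letters and not a binding site. Ctsd, a cathepsin counted here with macrophage genes, is printed too. The E-box is in capitals.
Ctsd (GRCm38.p6, chr7:142387778-142388077, minus strand): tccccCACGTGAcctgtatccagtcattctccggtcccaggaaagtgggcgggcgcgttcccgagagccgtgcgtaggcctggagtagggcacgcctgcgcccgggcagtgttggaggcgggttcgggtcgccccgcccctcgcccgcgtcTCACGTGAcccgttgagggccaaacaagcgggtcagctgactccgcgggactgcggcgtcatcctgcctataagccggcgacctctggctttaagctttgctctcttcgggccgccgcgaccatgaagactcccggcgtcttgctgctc
Ctsa (GRCm38.p6, chr2:164833523-164833822, plus strand): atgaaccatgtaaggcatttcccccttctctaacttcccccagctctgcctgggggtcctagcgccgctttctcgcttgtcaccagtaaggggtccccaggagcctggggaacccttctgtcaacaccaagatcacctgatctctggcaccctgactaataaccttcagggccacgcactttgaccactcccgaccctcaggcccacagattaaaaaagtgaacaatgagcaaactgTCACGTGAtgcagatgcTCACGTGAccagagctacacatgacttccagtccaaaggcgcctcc
Gaa (GRCm38.p6, chr11:119267713-119268012, plus strand): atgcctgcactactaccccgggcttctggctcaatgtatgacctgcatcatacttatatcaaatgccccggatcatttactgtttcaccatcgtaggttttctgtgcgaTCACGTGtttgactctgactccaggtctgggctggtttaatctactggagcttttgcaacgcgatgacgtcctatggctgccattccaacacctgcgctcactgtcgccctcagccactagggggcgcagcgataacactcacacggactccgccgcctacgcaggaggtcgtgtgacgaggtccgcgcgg
Atp6v1a (GRCm38.p6, chr16:44139210-44139509, minus strand): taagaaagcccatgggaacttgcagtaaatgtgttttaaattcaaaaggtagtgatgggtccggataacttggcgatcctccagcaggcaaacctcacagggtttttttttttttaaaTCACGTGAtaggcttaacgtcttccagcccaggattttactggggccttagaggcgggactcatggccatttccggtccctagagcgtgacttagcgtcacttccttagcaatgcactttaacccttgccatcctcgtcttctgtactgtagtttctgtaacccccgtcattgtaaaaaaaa

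Macrophage genes fell with the drug under HFD. Summed over 20 general and resident macrophage genes, the level was 4442 to 15497 TPM under HFD, 2319 to 4393 with drug, 3843 to 5967 on the normal diet and 1528 to 5879 with drug. Lipid-associated macrophages are the cells that take up lipid in obese fat. Summed over 20 of their genes, the level was 17328 to 24718 TPM under HFD and 9206 to 18438 with drug, which overlapped. It was 16492 to 18889 TPM on the normal diet and 6785 to 19583 with drug. Of the 19 tested, 12 fell with the drug under HFD (23% of all genes), Itgax included. The median drug effect was -1.25 under HFD and -0.45 on the normal diet, and the median interaction was -1.07. In whole tissue, fewer cells of a type and less RNA per cell cannot be told apart. Gpnmb, a membrane glycoprotein of lipid-laden macrophages, was at 44.4, 55.6, 83.9, 701 and 899 TPM in HFD libraries 83, 82, 23, 22 and 50, and with drug at 7.87 to 22.3 TPM. Normal diet libraries were at 21.1 to 45.5 TPM, and with drug at 12.4 to 46.8 TPM. All HFD libraries were above all HFD libraries with drug, while the normal diet groups overlapped. The drug effects were -3.65 (SE 0.679; adjusted p 0.00303) and -0.25 (SE 0.679), and the interaction was -3.39 (SE 0.960; adjusted p 0.214). Without libraries 22 and 50 the interaction of Gpnmb was -1.90 (unadjusted p 0.00169) and its drug effect under HFD was -2.16 (adjusted p 0.0226).

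Itgax, an integrin of inflammatory macrophages, had means of 75.3 TPM under HFD, 3.45 with drug, 6.16 on the normal diet and 3.44 with drug. Trem2, a lipid-sensing receptor, had means of 122, 9.01, 13.2 and 8.90 TPM in the same order. In HFD libraries 22 and 50 Itgax was at 132 and 204 TPM and in the other HFD libraries at 10.3 to 16.6 TPM. Itgax reached 10 TPM in HFD libraries alone and so entered through the group where it is high; its fall is no finding, and it is below the filter without libraries 22 and 50. Trem2 fell by 2.92 on the log2 scale under HFD and was at -0.60 on the normal diet; without libraries 22 and 50 its drug effect under HFD was -1.64 (adjusted p 0.0416). The cathepsins Ctsd and Ctsl had drug effects of -1.22 and -1.14 under HFD and of -0.0029 and -0.0043 on the normal diet; without libraries 22 and 50 the former were -0.66 and -0.66, with adjusted p of 0.0456 and 0.0642. Members that were not called included Apoe, with 0.05 under HFD, and Spp1, with -1.11. With libraries 22 and 50 left out, 4 of the 18 genes still tested fell under HFD (1.86% of all genes) and the median interaction was -0.49.

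General and resident macrophage genes went the same way less far, with 11 of 17 fallen under HFD (23% of all genes). Their median was -1.01 under HFD and -0.38 on the normal diet, and their interaction median was -0.63. After leaving out libraries 22 and 50, none of the 17 was called under HFD in limma, 5 had an unadjusted p under 0.05, and the interaction median was -0.19. Among Fc receptors and the phagocyte oxidase, 7 of 9 fell under HFD (23% of all genes). Fcgr1, a receptor for immunoglobulin G, had drug effects of -1.75 and -0.04, and Cybb, the oxidase's membrane subunit, of -1.76 and -0.25. Without libraries 22 and 50, Fcgr1 was below the filter and Cybb had -1.004 (adjusted p 0.0444). The interaction median of these 9 was -0.85; leaving out libraries 22 and 50 it was -0.20 over 8 genes, of which 1 was called. Of 16 chemokines and cytokines, 6 fell under HFD (23% of all genes). Their median interaction was -0.79, or -0.17 over 14 genes without both libraries. Ccl2, which recruits monocytes, was at 56.0, 63.2, 81.6, 144 and 176 TPM under HFD and at 8.34 to 45.3 TPM with drug, against 25.97 to 38.3 and 12.1 to 70.4 TPM on the normal diet. Its drug effects were -1.94 (adjusted p 0.00520) and 0.05, the former -1.44 with an adjusted p of 0.0831 when libraries 22 and 50 were left out. Csf1, a growth factor of macrophages, had -1.05 and -0.15, the former -1.01 (adjusted p 0.0432) without them. Of 12 interferon-induced genes, 6 fell under HFD (23% of all genes), with medians of -0.83 and -0.09. Leaving out libraries 22 and 50, none was called in limma and 9 had an unadjusted p under 0.05. With all libraries the median interaction of these genes was -0.83. An unadjusted interaction p under 0.05 was reached on the lower side by 1 of 12 (14.2% of all genes).

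**Figure D3:**
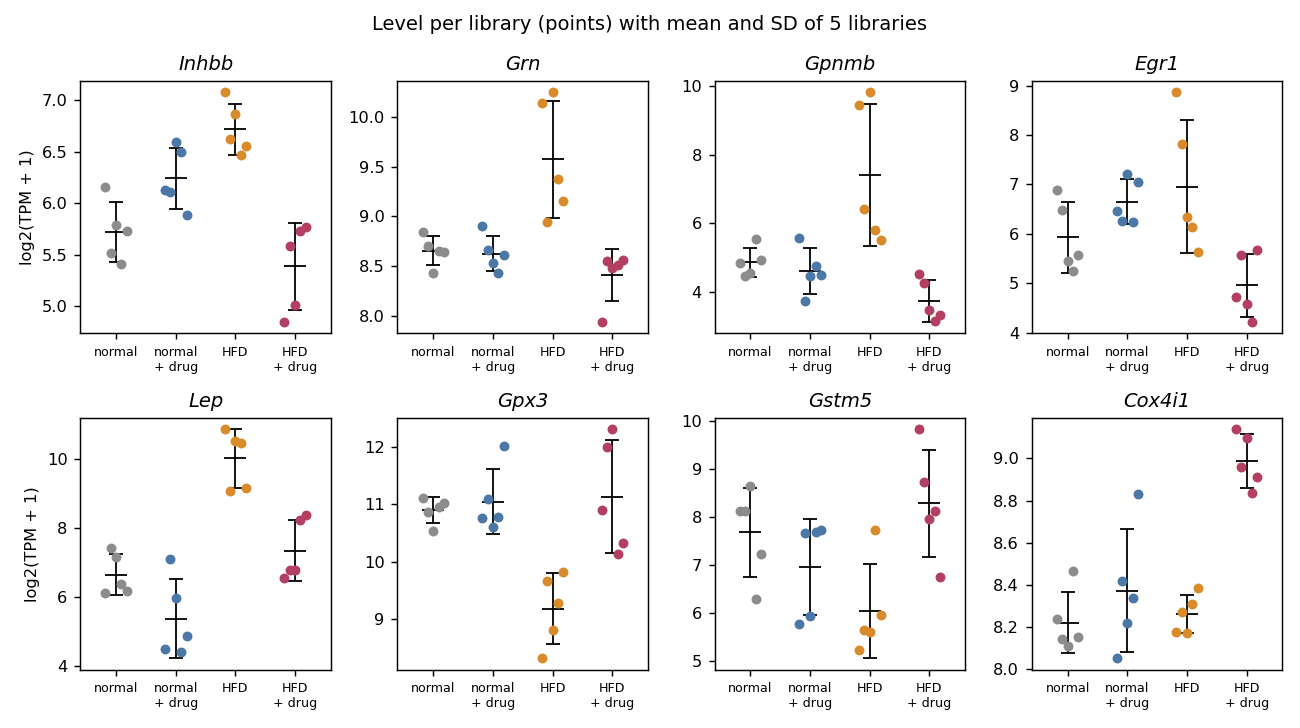
Level of 8 genes as log2(TPM + 1) (vertical) in each library (points) of the 4 groups, with the mean and SD of 5 libraries (bars). Grn and Gpnmb are highest under HFD, with libraries 22 and 50 highest, Lep is lower with drug under both diets, and Gpx3, Gstm5 and Cox4i1 are higher with drug under HFD.

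Immediate early genes, which respond within minutes to growth factors, stress and handling of tissue, had median drug effects of opposite sign under the diets. Of 13 tested, 5 fell under HFD (23% of all genes). The median drug effect was -0.82 under HFD and 0.40 on the normal diet, with none called there in limma and 2 higher at an unadjusted p under 0.05. The median interaction was -1.01, and 9 of 13 had an unadjusted interaction p under 0.05 on the lower side (14.2% of all genes). Egr1, a zinc-finger transcription factor, was at 463, 223, 80.1, 69.4 and 48.6 TPM in HFD libraries 22, 23, 50, 82 and 83 and at 17.7, 23.1, 25.6, 46.8 and 50.3 TPM with drug. It was at 37.0, 42.9, 47.0, 88.3 and 118 TPM on the normal diet and at 74.9, 75.2, 87.8, 132 and 146 TPM with drug. The groups overlapped under both diets, under HFD only in that drug library 62 lay above library 83. The drug effects on Egr1 were -1.99 (SE 0.506; adjusted p 0.00996) and 0.71 (SE 0.506), and the interaction was -2.71 (SE 0.716; adjusted p 0.214). Fos, a subunit of AP-1, had drug effects of -1.85 (adjusted p 0.0133) and 0.66. The effects under HFD were, without libraries 22 and 50, -1.56 for Egr1 (adjusted p 0.0727) and -0.99 for Fos (0.158). Egr2 had the widest split, with means of 43.1 TPM under HFD, 13.4 with drug, 4.50 on the normal diet and 67.9 with drug, and was not called. Klf2, Ier3 and Jun were not called either, with interactions of -0.27, -0.29 and -0.39. When libraries 22 and 50 were left out, the interaction median was -0.80 and 7 of 13 had an unadjusted interaction p under 0.05. Over all genes 5.14% had one on the lower side in that fit. None of the 13 was then called under HFD in limma, and 4 had an unadjusted p under 0.05.

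The CArG box, which serum response factor binds in promoters of such genes, was sought as CC, 6 letters A or T and GG. It was found in 2 of the 11 tested immediate early genes with a promoter (18.2%), Egr2 and Zfp36, against 90 of 5484 tested genes (1.64%). The promoter of Zfp36, whose protein degrades cytokine mRNAs, is shown with its box in capitals; Zfp36 fell under HFD, by 0.81 on the log2 scale, and was at 0.20 on the normal diet. It was not called without libraries 22 and 50 (adjusted p 0.259).
Zfp36 (GRCm38.p6, chr7:28379179-28379478, minus strand): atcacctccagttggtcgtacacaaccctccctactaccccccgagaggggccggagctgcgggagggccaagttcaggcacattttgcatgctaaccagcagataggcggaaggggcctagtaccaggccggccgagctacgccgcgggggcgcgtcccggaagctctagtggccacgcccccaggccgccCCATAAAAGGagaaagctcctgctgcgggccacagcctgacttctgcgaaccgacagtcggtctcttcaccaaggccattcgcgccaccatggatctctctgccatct

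All 13 tested collagens fell under HFD (23% of all genes), with a median of -1.47. Of them 1, Col5a1, reached 10 TPM in HFD libraries alone, so its fall is no finding. On the normal diet none passed in limma, 1 had an unadjusted p under 0.05, and values lay between -0.76 and -0.07, with a median of -0.44. Their median interaction was -0.90. An unadjusted interaction p under 0.05 was reached on the lower side by 9 of 13 (14.2% of all genes). Col6a2, a chain of the collagen that surrounds fat cells, was at 151, 153, 174, 270.2 and 294 TPM in HFD libraries 82, 83, 23, 50 and 22 and at 38.9, 56.6, 63.9, 74.8 and 142 TPM with drug. It was at 59.3 to 87.0 TPM on the normal diet and at 34.7 to 85.7 TPM with drug. The HFD groups did not overlap and the normal diet groups did. Col18a1, a basement membrane collagen, had the smallest interaction p among collagens (0.00343), with drug effects of -0.79 and -0.07. Col1a1, the main fibrillar chain, had -1.47 and -0.34. Col18a1 was still called under HFD without libraries 22 and 50 (adjusted p 0.0429), and Col6a2 (0.0532) and Col1a1 (0.09998) were not. Leaving out libraries 22 and 50, 2 of the 12 still tested fell under HFD (1.86% of all genes). In that fit 12 had an unadjusted p under 0.05, and the interaction median was -0.72.

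Among 13 genes of matrix remodelling, 10 fell under HFD (23% of all genes), with medians of -0.92 and -0.27. Among 19 matrix glycoproteins and proteoglycans 13 fell, with -1.03 and -0.41. Leaving out libraries 22 and 50, none of the 13 (8 at an unadjusted p under 0.05 in limma) and 1 of 18 fell (1.86% of all genes). With all libraries the median interactions of these lists were -0.68 and -0.65. An unadjusted interaction p under 0.05 was reached on the lower side by 3 of 13 and 5 of 19 (14.2% of all genes). Of 14 genes of the matricellular and TGF-beta list, 8 fell under HFD (23% of all genes), with medians of -0.82 and -0.20. Without libraries 22 and 50, 3 of 14 fell (1.86% of all genes). Both counts include Inhbb, which is named for its own interaction result. With all libraries the median interaction of this list was -0.61. An unadjusted interaction p under 0.05 was reached on the lower side by 6 of 14, Inhbb included (14.2% of all genes). Tgfb1, the founding ligand of the family, was at 33.3, 33.7, 36.6, 72.6 and 72.7 TPM under HFD and at 15.3 to 21.8 TPM with drug, against 22.5 to 32.5 and 23.7 to 36.1 TPM on the normal diet. Its drug effects were -1.26 (SE 0.207; adjusted p 0.00208) and 0.04 (SE 0.207). The interaction of Tgfb1 was -1.31 (SE 0.293; adjusted p 0.214), and -0.89 without libraries 22 and 50. Ccn5, a matricellular protein secreted by fat progenitors, had -2.45 and -0.43. Both were called under HFD without libraries 22 and 50, with adjusted p of 0.0226 for Tgfb1 and 0.0429 for Ccn5. Fst, the activin antagonist follistatin, was not called, with -0.51 under HFD and -0.54 on the normal diet.

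**Figure D4:**
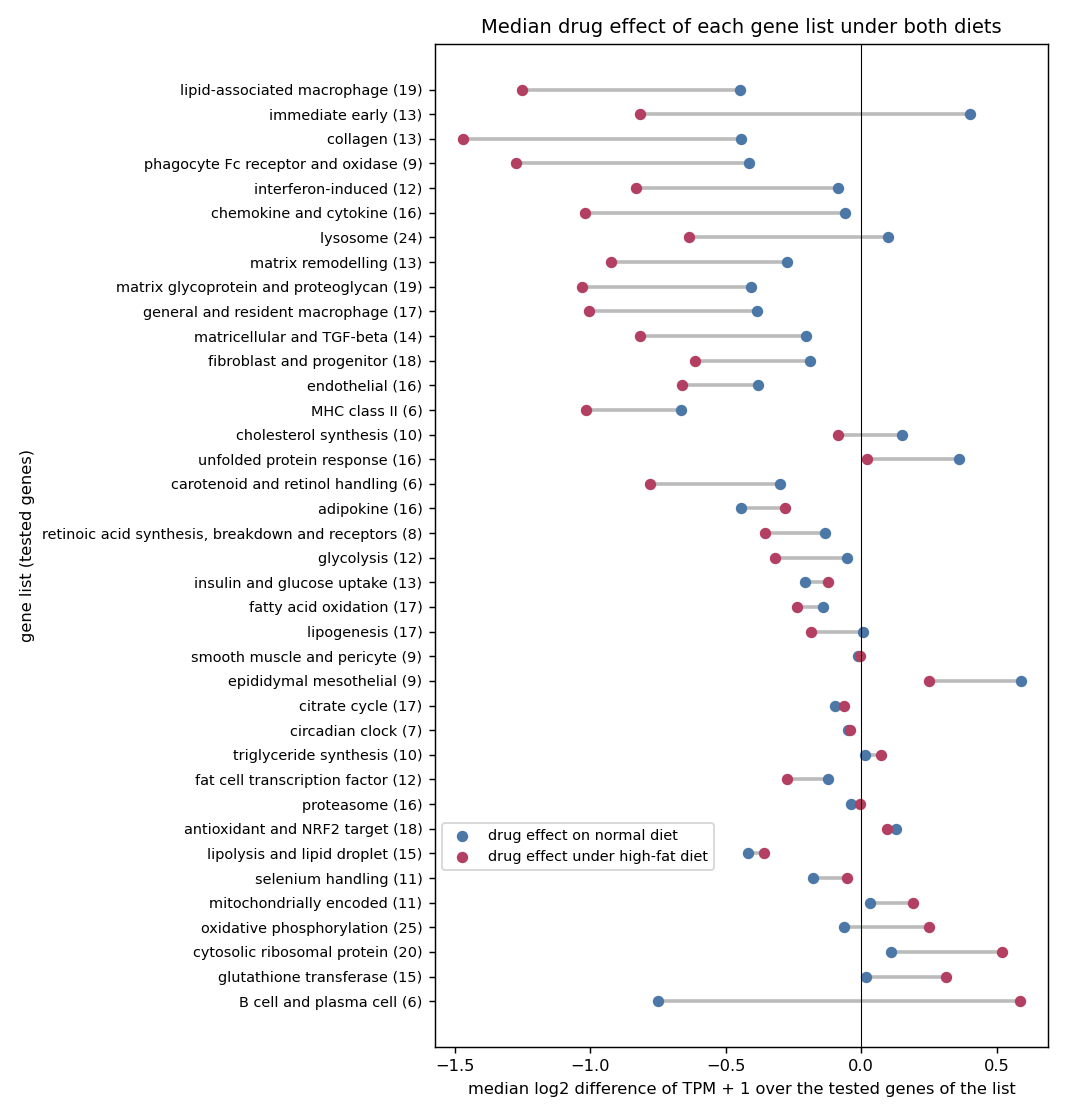
Median drug effect (horizontal, log2 difference of TPM + 1) on the normal diet (blue) and under HFD (red) for 38 gene lists (vertical, tested genes in brackets), ordered by median interaction. Collagens are at -1.47 and -0.44, lysosomal genes at -0.64 and 0.10, and ribosomal protein genes at 0.52 and 0.11.

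Some genes had lower values with the drug under both diets, though none was called on the normal diet. Lep, which encodes the fat cell hormone leptin, was at 534, 566, 1415, 1459.9 and 1855 TPM in HFD libraries 23, 83, 82, 50 and 22 and at 93.0 to 331 TPM with drug. Normal diet libraries were at 68.1 to 169 TPM, and with drug at 20.4, 21.8, 28.1, 61.5 and 135 TPM. The HFD groups did not overlap, and on the normal diet 4 of 5 drug libraries lay below all libraries without drug. The drug effects on Lep were -2.66 (SE 0.525; adjusted p 0.00344) and -1.28 (SE 0.525; unadjusted p 0.0255), and the interaction was -1.39 (SE 0.743; adjusted p 0.324). Npr3, the clearance receptor of natriuretic peptides, had -1.52 (adjusted p 0.00440) and -1.18, and Mest, an imprinted gene linked to fat cell size in mice, -1.88 (adjusted p 0.0248) and -1.46. Without libraries 22 and 50 the drug effect under HFD was -2.21 for Lep (adjusted p 0.0561), -1.55 for Npr3 (0.0504) and -1.35 for Mest (0.218). All 6 tested MHC class II genes, which present antigen, fell under HFD (23% of all genes), with a median of -1.02. On the normal diet their median was -0.67 and 4 of 6 had an unadjusted p under 0.05; their median interaction was -0.35, and none had an unadjusted interaction p under 0.05. With libraries 22 and 50 left out, their interaction median was -0.02, none was called under HFD in limma, and 5 had an unadjusted p under 0.05. Adipoq, the adiponectin gene, was not called, with drug effects of -0.12 and -0.45.

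Cytosolic ribosomal protein genes and some genes of oxidative phosphorylation rose with the drug under HFD. The antioxidant and NRF2 target list was mixed: of 18 tested, 3 rose and 2 fell under HFD, with medians of 0.10 and 0.13 and an interaction median of 0.05. The 10 genes with the smallest interaction p on the higher side and a group mean of 50 TPM were Cp, Grhpr, Pts, Hint2, Gstm5, Sephs2, Ndufc2, Cox4i1, Gpx3 and Gstt2, all with an adjusted p of 0.214. Of these, 9 rose under HFD, which follows in part from the choice, since the drug effect under HFD is a part of the interaction. Gstt2 was at 0.31 under HFD (adjusted p 0.317) and at -0.73 on the normal diet (unadjusted p 0.00479). Without libraries 22 and 50, Cox4i1 was called under HFD (adjusted p 0.0416) and the other 8 were not. Gpx3, the secreted glutathione peroxidase, was at 319.6, 450.2, 626, 812 and 904 TPM in HFD libraries 22, 50, 82, 23 and 83 and at 1126, 1286, 1924, 4087 and 5076 TPM with drug. It was at 1495 to 2214 TPM on the normal diet and at 1557 to 4156 TPM with drug. The HFD group was the low one and overlapped with none of the others. The drug effects on Gpx3 were 1.95 (SE 0.391; adjusted p 0.00382) and 0.15 (SE 0.391), and its interaction was 1.81 (SE 0.554). Libraries 27 and 26, highest with drug under HFD, also held the most epididymis transcripts of that group; with the epididymis score as a covariate the interaction of Gpx3 was 1.96 (adjusted p 0.0503). Leaving out libraries 22 and 50, the drug effect on Gpx3 under HFD was 1.54 (adjusted p 0.0591). Cp, the copper-carrying ferroxidase ceruloplasmin, had means of 34.1 TPM under HFD, 50.3 with drug, 65.4 on the normal diet and 53.1 with drug. Sephs2, which makes the selenium donor of selenoproteins, had means of 122, 234, 331 and 305 TPM.

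Of 15 glutathione transferases, which conjugate glutathione to reactive compounds, 5 rose and 1 fell under HFD (4.40% and 23% of all genes). The medians were 0.31 and 0.02. The median interaction was 0.47, and 0.27 without libraries 22 and 50. With all libraries 4 of 15 had an unadjusted interaction p under 0.05 on the higher side (3.49% of all genes). Members of this family are similar in sequence, and how reads shared between them were counted is not given in the sources used here. Gstm5 was at 36.8, 47.9, 49.5, 61.7 and 212 TPM under HFD and at 108, 249, 278, 427 and 909.9 TPM with drug, against 77.2 to 398 and 54.1 to 211 TPM on the normal diet. The groups overlapped under both diets. The drug effects on Gstm5 were 2.24 (SE 0.599; adjusted p 0.0128) and -0.72 (SE 0.599), the former 1.83 (adjusted p 0.127) without libraries 22 and 50. Of 25 tested genes of oxidative phosphorylation, 7 rose (4.40% of all genes) and none fell under HFD, with medians of 0.25 and -0.06. Of the 25, 7 had an unadjusted interaction p under 0.05 on the higher side (3.49% of all genes). Cox4i1, a subunit of cytochrome c oxidase, was at 287 to 333 TPM under HFD, 456 to 563 with drug, 275 to 352 on the normal diet and 264 to 455 with drug. The HFD with drug libraries lay above all others, though normal diet with drug library 11 came within 1 TPM of the lowest. Its drug effects were 0.73 (SE 0.122; adjusted p 0.00208) and 0.15 (SE 0.122). Of 20 cytosolic ribosomal protein genes, 16 rose under HFD (4.40% of all genes), with medians of 0.52 and 0.11. Of the 20, 4 had an unadjusted interaction p under 0.05 on the higher side (3.49% of all genes). Excluding libraries 22 and 50, 2 of the 25 oxidative phosphorylation genes rose under HFD, beside 7 of 7583 genes tested. None of the ribosomal genes was called in limma, and 18 had an unadjusted p under 0.05. Of the 15 glutathione transferases none was called and 5 had an unadjusted p under 0.05. The share of all genes at an unadjusted p under 0.05 in that fit is not given.

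**Figure D5:**
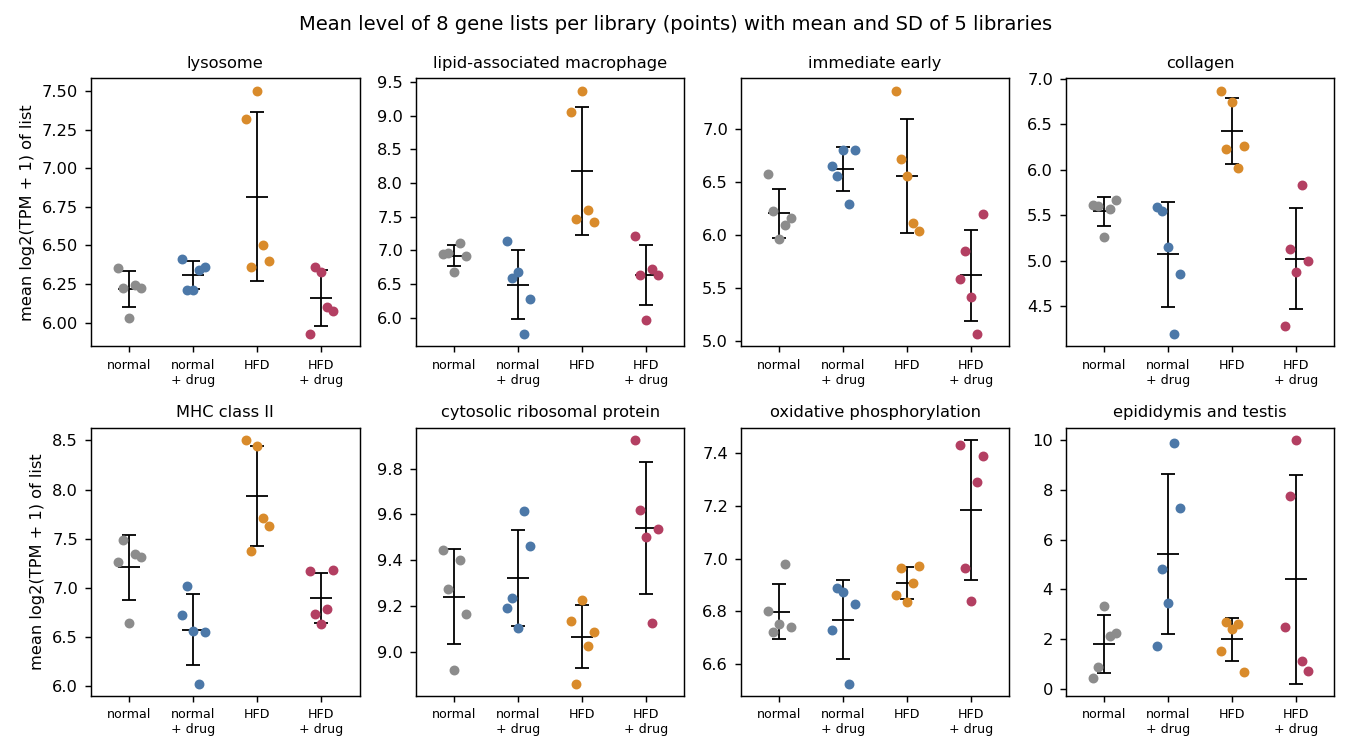
Mean log2(TPM + 1) of the tested genes of 8 lists (vertical) in each library (points) of the 4 groups, with the mean and SD of 5 libraries (bars). Lysosomal and lipid-associated macrophage genes peak in HFD libraries 22 and 50, immediate early genes are lowest under HFD with drug, and epididymis and testis genes span 0.43 to 9.99 with the highest values in both drug groups.

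The scale of the libraries moved the centre of all genes. The median interaction of -0.16 became -0.01 after quantile normalization, 0.02 with library medians made equal and 0.03 with a trend on gene length removed. Relative to the median of all genes, lysosomal genes were at -0.63 as reported, -0.60 after quantile normalization and -0.57 with the length trend removed. In the same order lipid-associated macrophage genes were at -0.90, -0.97 and -0.86, immediate early genes at -0.85, -0.90 and -0.88, and collagens at -0.74, -0.71 and -0.62. Oxidative phosphorylation genes were at 0.47, 0.43 and 0.33, and ribosomal protein genes at 0.56, 0.41 and 0.44. Making library medians equal shifts all genes of a library alike, so these relative values cannot move with it. None of these 6 medians changed sign under quantile normalization or removal of the length trend, before or after the shift was taken off.

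With the epididymis and testis score as a covariate, 361 genes passed the interaction test (4.64%), 333 lower and 28 higher. In the fit without it, on the same libraries, 277 had an unadjusted interaction p under 0.05. The same sign in both fits, seen for all 361, is therefore no separate evidence. Among the 361 were 6 of 13 immediate early genes (Fos, Egr1, Jund, Btg2, Zfp36 and Dusp1), beside 4.64% of all genes. They also held 4 of 13 collagens, 4 of 16 chemokines and cytokines and 4 of 13 matrix remodelling genes. Of the matricellular and TGF-beta list 4 of 14 were called, and of lysosomal genes 3 of 24, Psap and Grn among them. General macrophage genes gave 1 of 17 and Fc receptors with the phagocyte oxidase 1 of 9. None of 6 MHC class II and none of 12 interferon-induced genes was called. Inhbb had an adjusted p of 0.0186 in the fit with the covariate. On leaving out the 7 samples with over 500 TPM of these transcripts, no gene passed in limma (2387 had an unadjusted p under 0.05), and Inhbb had an adjusted p of 0.0588. Leaving out normal diet with drug library 9 alone gave 15 genes, all lower, Inhbb among them. The highest scores were in drug libraries under both diets, so its part and that of the drug cannot be fully told apart in these groups.

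Of 15 listed genes of carotenoid and retinol handling 6 passed the filter, and of 18 of retinoic acid synthesis, breakdown and receptors 8 did. Bco1 and Bco2, the enzymes that cleave carotenoids, were below the filter, with group means of 0.0397 to 0.329 and of 0.519 to 0.853 TPM, and so was Rarb, a retinoic acid receptor and target of retinoic acid, with 0.0164 to 0.0329 TPM. Cyp26b1, which breaks down retinoic acid, had means of 2.26 TPM under HFD, 3.61 with drug, 7.42 on the normal diet and 9.04 with drug; it was below the filter too and was not called in a fit with no filter. Of 6 tested genes of carotenoid and retinol handling, 2 fell under HFD (23% of all genes). Leaving out libraries 22 and 50 none was called in limma and 2 had an unadjusted p under 0.05. Scarb1, a receptor for lipoproteins that also takes up carotenoids, was at 15.7 to 25.4 TPM under HFD and at 7.79 to 14.3 TPM with drug, against 12.5 to 16.6 and 10.8 to 16.8 TPM on the normal diet. The HFD group stood above its drug group with no overlap, and the drug effects were -0.89 (adjusted p 0.00313, and 0.0504 without libraries 22 and 50) and 0.03. Dhrs3, which reduces retinal to retinol and is induced by retinoic acid, had drug effects of -1.01 (adjusted p 0.00674) and -0.48. Of 8 tested genes of retinoic acid synthesis, breakdown and receptors, 2 fell and 1 rose under HFD (23% and 4.40% of all genes). The last was Aldh1a1, which makes retinoic acid, with 0.88 under HFD and 0.68 on the normal diet. Dhrs3 (adjusted p 0.0978) and Aldh1a1 (0.310) were not called without libraries 22 and 50.

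In lists of fat cell metabolism members went both ways. The interaction medians of lipogenesis, triglyceride synthesis, lipolysis and lipid droplet, fatty acid oxidation and the citrate cycle lay between -0.11 and 0.12, beside -0.16 over all genes, while members ranged from -1.43 to 1.25 in triglyceride synthesis and from -1.21 to 1.07 in lipolysis. Under HFD 3 of 17 lipogenesis genes, 2 of 10 of triglyceride synthesis, 4 of 15 of lipolysis and 2 of 17 of fatty acid oxidation fell. In triglyceride synthesis 1 rose. Over all genes tested 23% fell and 4.40% rose, so these counts do not set the lists apart. Gpd1, which makes the glycerol phosphate of triglycerides, had means of 338 TPM under HFD, 123 with drug, 76.9 on the normal diet and 76.6 with drug, and drug effects of -1.44 (adjusted p 0.00640) and -0.0042. Dgat2, which adds the last fatty acid of triglycerides, had -1.51 and -0.97, G6pdx, which supplies NADPH, -0.74 and -0.06, and Cpt1a, which admits fatty acids to mitochondria, -0.77 and 0.05. These 4 genes were named after their values were seen, and without libraries 22 and 50 none was called under HFD in limma (adjusted p from 0.0763 to 0.201). Fasn, the fatty acid synthase, had means of 493 TPM under HFD, 296 with drug, 163 on the normal diet and 234 with drug, with drug effects of -0.83 (adjusted p 0.103) and 0.47. Cfd, the complement factor adipsin, was at 2068 and 2345 TPM in HFD libraries 22 and 50 and at 11025 to 17161 TPM in the other HFD libraries. With drug it was at 11749 to 29904 TPM under HFD, and the drug effect of 1.41 had an adjusted p of 0.0670. Ucp1, the uncoupling protein of brown and beige fat, had group means of 0.191 to 2.52 TPM. The 16 tested genes of the unfolded protein response were not called under HFD in limma (none at an unadjusted p under 0.05), with medians of 0.02 and 0.36. Of 6 tested B cell and plasma cell genes, 1 rose under HFD (4.40% of all genes), with medians of 0.59 and -0.75. It was Ighg2b, an immunoglobulin heavy chain gene, with an adjusted p of 0.0396, and 0.139 without libraries 22 and 50. The median interaction of the 6 genes was 1.43, and 1.30 without libraries 22 and 50. An unadjusted interaction p under 0.05 was reached on the higher side by 3 of 6 (3.49% of all genes), and none was called.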

How the data were processed

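RNA sequencing of 40 samples was deposited by the authors as 1 table of TPM values per gene; the 20 samples labelled subcutaneous fat were used, in 4 groups of 5. Per the submitters' processing notes, the genome build was GRCm39 and the tools were DESeq2 1.32.0, featureCounts 2.0.3, STAR 2.7.8 and FastQC 0.11.9. TPM keeps no read counts, so depth is unknown and no counting intervals are given. Genes with at least 10 TPM in at least 5 samples were analysed as log2(TPM + 1), which understates changes of low genes. The interaction and both drug effects were fitted across all genes with limma 3.58.1 in R 4.3.3 (trended, robust empirical Bayes). Benjamini-Hochberg adjustment was over 7776 genes, with a threshold of 0.05. The fit was run on simulated data with large planted changes and a capped spread. That run does not cover small changes, wide spreads or libraries that stand apart. The labels do not say that samples are separate animals, so p-values measure only the spread between these libraries. Named genes were the 10 with the smallest interaction p in each direction and a group mean of at least 50 TPM, plus a fixed list, and 1 gene that the rule takes is not reported here; list members named are mostly those with the smallest interaction p and some were picked after their values were seen. The members, gene lists and tests were chosen with earlier results of these data known. Promoters are from RefSeq on GRCm38.p6 and matched by symbol, for 5484 of the tested genes; gene lengths came from an annotation of another build. Alternatives were other pseudocounts, filters and scalings, library weights, an epididymis covariate and leaving out libraries.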

Additional observations from a re-analysis of the deposited data

Results flagged for a closer look

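The drug effect differed between the diets by the interaction test for 1 gene, Inhbb, whose values are given with the results. In 136 groups of 5 libraries checked for a library far from the others, 9 were found, where chance gives about 5% of groups. Grn was at 245 TPM in HFD with drug library 25, against 356 to 378 TPM in the others of that group. Sephs2 was at 307 TPM in the same library, against 201 to 226 TPM. In the normal diet with drug group, Cp was at 62.4 TPM in library 5, against 48.8 to 52.4 TPM, and Ndufc2 at 89.7 TPM in library 8, against 74.2 to 76.9 TPM. Fasn was at 107 TPM in library 2 of that group, against 235 to 303 TPM. Ucp1 was at 12.1 TPM in library 11, against 0.0526 to 0.305 TPM. In the normal diet group, library 96 had Col1a1 at 108 TPM, against 186 to 211 TPM, and Bco1 at 1.36 TPM, against 0.0132 to 0.139 TPM. Under HFD, Bco1 was at 1.22 TPM in library 82, against 0.0542 to 0.120 TPM.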

How the results depend on the processing

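The count of 1 gene called for the interaction, Inhbb, was unchanged with a pseudocount of 0.5, a mean of at least 50 TPM, mitochondrially encoded or epididymis genes removed, a gene length trend removed or empirical Bayes without trend. It was 2, both lower, with a pseudocount of 5, quantile normalization or library weights, and 3, all lower, in a fit of all 40 samples. It was 0 with no filter (3549 genes at an unadjusted p under 0.05 in limma), a filter of 1 TPM (2728), library medians made equal (1220) and samples over 500 TPM of epididymis genes left out (2387). Of the alternatives chosen after seeing the data, leaving out normal diet with drug library 9 and HFD with drug library 27 gave 0 (2067), leaving out HFD libraries 22 and 50 gave 0 (528), and removing a length trend with the epididymis covariate gave 104, with 78 lower and 26 higher. The epididymis covariate alone gave 361, with 333 lower and 28 higher. Leaving out 1 library in turn gave 0 to 15, all lower. The cause of these changes was not tested, except that fewer samples enter where libraries are left out. Without libraries 22 and 50 Inhbb had an interaction of -1.68 (adjusted p 0.124), and 148 genes were called for the drug under HFD, against 2129; leaving out 1 library in turn gave 1210 to 2490. The interaction of the gene Adipoq, 0.33 and not called, was -0.0854 with library weights, -0.0320 with the covariate, -0.0711 with the length trend and covariate, and from -0.0425 to 0.498 on leaving out 1 library. No paired analysis was possible because the 4 groups share no library numbers.

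TPM values carry no read depth, so low genes cannot be given counting errors. With 5 libraries a group the median standard error of an interaction was 0.26 on the log2 scale. The epididymis transcripts, the depot markers and the macrophage-rich HFD libraries 22 and 50 limit what the interaction can be ascribed to.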
